A study of Mus musculus with 8 samples.

Results

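The genes described here encode the subunits of potassium channels and of voltage-gated sodium and calcium channels, measured by RNA sequencing in mouse neurospheres and newborn cortex with and without the histone deacetylase Hdac3. They were taken as every gene whose symbol starts with Kcn, with Scn and a digit, or with Cacn in either deposited table of expression levels. This gave 92 of 12537 genes, of which 62 were potassium, 8 sodium and 22 calcium channel genes. Of them 78 were in the neurosphere table and 91 in that of cortex, with 77 in both. Of the other 15, Kcnj16 was in the neurosphere table alone and 14 were in the cortex table alone. The symbols cover more than ion pores. Kcnmb4os2 is a noncoding antisense RNA, several Kcn, Scn and Cacn genes encode auxiliary subunits, and most Cacng genes encode proteins better known for trafficking AMPA-type glutamate receptors.

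All animals were C57BL/6 mice. The 4 groups were wild-type (WT) neurospheres, Hdac3 knockout (KO) neurospheres, WT cortex and Hdac3 KO cortex, with 2 libraries in each, and the design text counts 2 brains per genotype for each tissue. Neurospheres, which are suspended clusters that stem and progenitor cells form in culture, were kept until day 4 after the cerebrum was taken from embryos at E16.5 (in embryonic days), and the cortex libraries came from its dorsal part at postnatal day 0. The cortex KO labels name Emx1 and the authors' cortex table names Cre under its control, active in dorsal forebrain progenitors and the cells born from them. Interneurons of ventral origin, microglia and vessel cells in the same tissue thus need not lack Hdac3. Which driver produced the KO neurospheres is not stated in the labels, and for WT mice no further allele is named. Libraries carry the numbers of the labels, so the neurosphere libraries are WT 5 and WT 6 with KO 7 and KO 8, whereas cortex has numbers 1 and 2 in each genotype.

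Voltage-gated sodium channels carry the upstroke of the action potential, voltage-gated potassium channels end it and set the firing rate, and voltage-gated calcium channels couple it to calcium entry and transmitter release. Inwardly rectifying and leak potassium channels hold the resting potential. Each pore is built from pore-forming subunits, and auxiliary subunits alter its gating and its delivery to the membrane. In the cortex around birth neurons are still acquiring these currents, and progenitors express some of the same genes. Hdac3 provides the enzyme activity of the corepressor complexes built on NCoR and SMRT, which remove acetyl groups from histones.

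Levels are FPKM, fragments scaled to transcript length and to the mapped fragments of the library, so they can be compared between genes within a table. Hdac3 itself was 48.1 and 46.1 FPKM in WT cortex and 26.8 and 27.1 in KO cortex, and 34.4 and 28.7 in WT and 18.03 and 20.5 in KO neurospheres. The KO libraries were the lower ones in both tissues, with a log2 fold change of −0.78 in cortex (adjusted p = 0.000319, limma-trend with Benjamini-Hochberg adjustment, BH) and of −0.68 in neurospheres (adjusted p = 0.104, limma-trend with BH). Both tables hold genes with at least about 1 FPKM in every WT library (the lowest WT values were 0.999 and 1.0), so a channel gene silent in WT and expressed in KO was outside them. This choice on WT also favours falls among genes near 1 FPKM, which entered only with WT at that level or above. Replicates correlated across genes at Pearson r of 0.976 and 0.967 in WT and KO neurospheres and of 0.996 and 0.995 in cortex, where genes are not independent replicates. In the text below, a gene rose, fell or was called where its adjusted p in limma-trend with BH over all genes of the table was under 0.05, fold changes are on the log2(FPKM + 1) scale, and errors are SD with n = 2.

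Channel genes were mostly expressed at modest levels. Their median WT level was 5.48 FPKM in neurospheres, against 10.4 over all genes of that table, and 5.05 FPKM in cortex, against 9.45. In WT cortex the highest level was that of Cacnb3, a cytosolic beta subunit that brings calcium channel pores to the membrane, at 63.9 ± 6.02 FPKM. The sodium channel beta subunit gene Scn3b followed at 53.7 ± 0.31, then Cacng7 (44.9 ± 5.08) and Cacng4 (44.8 ± 6.80), both of the gamma family, and Kcnmb4, a neuronal beta subunit of the large-conductance calcium-activated channel, at 37.1 ± 7.38. The spreads of Cacng7, Cacng4 and Kcnmb4 overlapped, and their order was not tested. Within each WT library Kcnmb4 (42.3 and 31.9) was below Cacng7 (48.5 and 41.3) and Cacng4 (49.6 and 40.0). Cacna2d1, the alpha2delta subunit bound by gabapentin, stood at 19.6 ± 2.04 and Scn2a1, a main sodium channel pore of newborn cortex, at 18.7 ± 2.04.

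WT neurospheres had a similar leading set. Cacng7 was highest at 66.3 ± 3.90 FPKM. Kcnip3, a calcium-binding partner of A-type potassium channels that also acts as a transcriptional repressor, followed at 46.5 ± 1.43. Cacng4 (41.3 ± 4.07), Scn3b (41.0 ± 3.78) and Kcnd3 (40.0 ± 9.74), an A-type pore, lay within each other's spread, and Cacnb3 (34.8 ± 0.44), Cacna2d1 (27.7 ± 3.44) and Kcnmb4 (24.8 ± 0.77) came next. The tables were made separately, so levels were not tested between tissues. About 299 to 368 fragments stood behind the median channel gene in a neurosphere library and 399 to 466 in a cortex library, as implied by the width of the deposited Cufflinks intervals.

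Many channel genes were lower in Hdac3 KO than in WT newborn cortex and few were higher. Of 91 channel genes tested, 32 fell and 4 rose, or 35.2% and 4.4%. Over all 11988 genes tested 22.5% passed the threshold, 17.7% as lower and 4.8% as higher. The share of channel genes that fell was thus above the background, and the share that rose was close to it. At an unadjusted p under 0.05 there were 45 (49.5%), where 39.0% of all genes had one. The median log2 fold change was −0.19 over the channel genes and −0.10 over all genes. Among the 32 genes that fell the ratio of KO to WT FPKM ran from 0.445 to 0.767, and among the 4 that rose from 1.21 to 1.69. Both KO libraries lay below both WT libraries for 57 of 91 channel genes (62.6%), where the share over all genes was 50.2%, and above them for 12 (13.2%), where it was 15.5%.

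**Figure D1:**
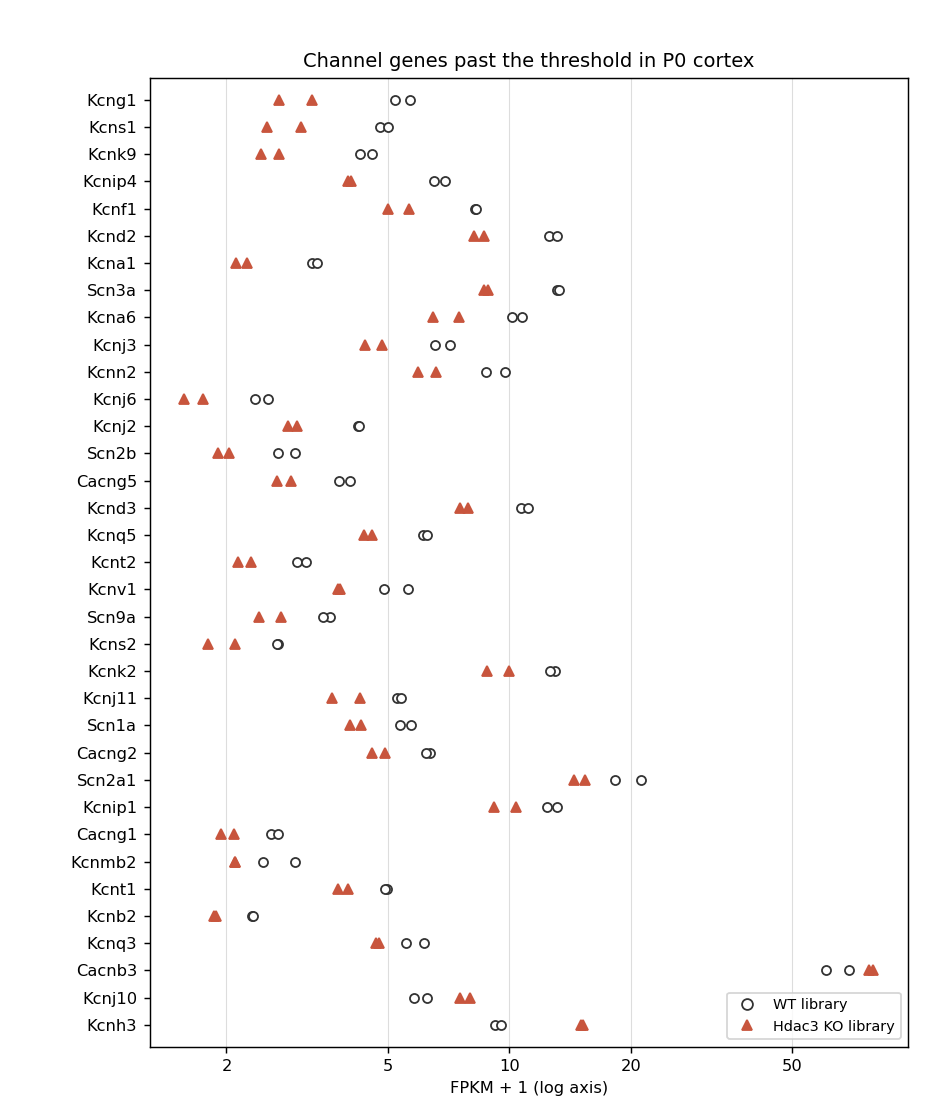
Levels of 35 of the 36 channel genes past the threshold in P0 cortex, as FPKM + 1 on a log axis, one row per gene ordered by log2 fold change. Circles are the 2 WT libraries and triangles the 2 KO libraries; no row overlaps, and the 3 rows at the bottom, Cacnb3, Kcnj10 and Kcnh3, are those with KO above WT.

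The split between lower and higher calls depended on the scale. Rescaling the libraries by median ratios, which moves the median gene from −0.10 to 0, gave 30 calls, 23 lower and 7 higher, with 27 of the 36 kept. On that scale 17.3% of all genes were called, 7.72% lower and 9.57% higher, against 25.3% and 7.69% of the channel genes. Kcnb2, Kcnq3, Kcnip1, Kcnt1, Kcnmb2, Kcnj11, Cacng1, Scn1a and Scn2a1 then missed the threshold, and Cacnb1, Kcnn1 and Scn3b passed it as higher. Calls also rested on single libraries, with 20 of the 36 left without KO 1 and 18 without KO 2, and 13 genes passed in every fit that left 1 library out. These were Kcng1, Kcns1, Kcnf1, Kcnk9, Kcnip4, Kcnd2, Kcnd3, Kcna1, Kcna6, Kcnj2, Kcnj3, Scn3a and Kcnh3. With a spread estimated over all 8 libraries, which includes the more variable neurospheres, no channel gene of 77 passed and 0.0548% of all genes did, while 21 of the 77 had an unadjusted p under 0.05. Among the 73 channel genes with a mean of 2 FPKM or more, farther from the level at which WT chose the genes, 24 fell and 4 rose (32.9% and 5.48%), against 17.3% and 5.03% of all such genes.

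Cell-type markers also moved in KO cortex. Summed FPKM of 12 neuron markers was 3591 and 3759 in WT and 4070 and 4126 in KO, with 6 of the 12 higher and 1 lower. Of 7 measured astrocyte markers 4 rose and 1 fell, and their sum went from 326.9 and 345.8 to 646.0 and 576.9. Of the 8 measured oligodendrocyte lineage markers 4 rose, from a sum of 72.4 and 61.9 to 91.1 and 80.0, and of 8 microglia markers 5 rose and 1 fell, from 48.9 and 47.5 to 67.8 and 58.2. Among 6 meningeal fibroblast markers 5 rose (52.6 and 50.9 to 75.1 and 68.8), among 8 endothelial and pericyte markers 1 rose (109.3 and 111.9 to 128.6 and 121.0), and among 8 radial glia markers 3 rose (1054 and 1155 to 1471 and 1383). Only 1 of 11 GABAergic interneuron markers changed, a fall, with WT sums of 355.0 and 318.9 and KO sums of 269.7 and 313.5. No marker was listed at 0 in any cortex library. The part of these shifts in the channel results was not tested, and in bulk tissue fewer cells of a type and less RNA per cell cannot be told apart.

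The largest falls were in silent potassium channel subunits, which form no working channel alone and modify the delayed rectifiers of the Kcnb family. Of the 6 tested, 5 fell, with a median log2 fold change of −0.55 over the 6. Kcng1 was 4.67 and 4.21 FPKM in WT cortex and 2.26 and 1.69 in KO. Both KO libraries were far below both WT libraries (log2 fold change −0.88, SE 0.11, adjusted p = 0.00203, limma-trend with BH). Kcns1 went from 3.78 and 4.00 to 1.52 and 2.06 FPKM, again without overlap (log2 fold change −0.82, SE 0.11, adjusted p = 0.00246, limma-trend with BH). Kcnf1, the most abundant of the silent subunits, measured 7.25 and 7.29 FPKM in WT and 4.02 and 4.64 in KO. Its WT libraries were nearly equal and its KO libraries were both lower (log2 fold change −0.64, SE 0.09, adjusted p = 0.00311, limma-trend with BH). The silent subunit genes Kcnv1 (4.25 ± 0.50 to 2.79 ± 0.027 FPKM) and Kcns2 (1.67 ± 0.015 to 0.95 ± 0.21) fell by 0.47 and 0.46 on the log2 scale. Kcns3 did not pass, at 1.14 and 1.31 in WT and 0.967 and 1.02 in KO. Kcnb2, a delayed rectifier pore that such subunits join, fell by 0.31 on the log2 scale, from 1.31 and 1.33 to 0.864 and 0.880 FPKM (adjusted p = 0.0448, limma-trend with BH).

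Start regions of 65 of the 92 genes were matched in RefSeq annotation of GRCm38.p6, a build other than that of the expression files. Each window holds 300 bases, from 250 before to 50 after the annotated start. Shown 5′ to 3′ on the gene's strand are called genes with a single annotated window. They are the 3 of these with the largest falls in cortex, and Kcnj10, the only one of these that rose. Genes with larger changes, such as Kcng1 and Kcnh3, had no window and are not shown. The falls are those of Kcns1 (chr2:164171064-164171363, minus strand), Kcnf1 (chr12:17176839-17177138, minus strand) and Kcnd2 (chr6:21215096-21215395, plus strand), and the rise is that of Kcnj10 (chr1:172340960-172341259, plus strand). Capitals mark the GC box GGGCGG, read on either strand.
Kcns1: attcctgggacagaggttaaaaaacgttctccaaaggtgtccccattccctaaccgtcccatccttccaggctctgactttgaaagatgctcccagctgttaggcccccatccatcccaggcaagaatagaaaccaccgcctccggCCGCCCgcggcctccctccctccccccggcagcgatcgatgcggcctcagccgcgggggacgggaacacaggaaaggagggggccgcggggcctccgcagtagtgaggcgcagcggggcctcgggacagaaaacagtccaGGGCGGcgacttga
Kcnf1: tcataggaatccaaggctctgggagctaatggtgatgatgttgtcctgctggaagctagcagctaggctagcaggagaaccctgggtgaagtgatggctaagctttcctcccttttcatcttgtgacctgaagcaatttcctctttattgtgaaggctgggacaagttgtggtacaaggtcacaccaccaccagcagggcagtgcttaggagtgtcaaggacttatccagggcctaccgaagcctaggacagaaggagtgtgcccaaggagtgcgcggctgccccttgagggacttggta
Kcnd2: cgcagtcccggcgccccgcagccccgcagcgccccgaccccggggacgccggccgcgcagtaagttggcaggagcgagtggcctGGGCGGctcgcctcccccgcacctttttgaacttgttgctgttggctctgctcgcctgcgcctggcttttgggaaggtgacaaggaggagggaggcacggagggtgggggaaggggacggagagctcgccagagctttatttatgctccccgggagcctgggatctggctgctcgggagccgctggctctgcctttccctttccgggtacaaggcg
Kcnj10: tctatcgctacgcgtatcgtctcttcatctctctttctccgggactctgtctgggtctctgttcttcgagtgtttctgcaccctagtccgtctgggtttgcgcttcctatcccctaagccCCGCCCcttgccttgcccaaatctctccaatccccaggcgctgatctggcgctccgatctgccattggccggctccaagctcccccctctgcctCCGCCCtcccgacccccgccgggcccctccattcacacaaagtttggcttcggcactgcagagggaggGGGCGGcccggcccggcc

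The windows differ in composition. The Kcns1 window holds 2 GC boxes, that of Kcnf1 none, that of Kcnd2 1 and that of Kcnj10 3. CG dinucleotides number 22, 3, 26 and 21 in the same order, against a median of 7 over 32851 windows of all annotated genes. Over the 99 windows of the channel genes 46.5% hold a GC box, and 35.7% over all genes. By direction in cortex, 8 of 30 windows of genes that fell held one (26.7%), 3 of 3 windows of genes that rose, and 35 of 66 windows of the other channel genes (53.0%). The 3 windows of genes that rose belong to Cacnb3 and Kcnj10 alone, too few for a comparison by direction. The letters TATAAA were in 6.06% of channel windows and 13.6% of all, and TGACG in 15.2% and 20.8%, each read on both strands. Matches of different motifs can share bases at their ends, a gene with several windows counts more than once, and a match in such a window is a description of the letters only.

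Pore-forming voltage-gated potassium subunits fell in 7 of 23 cases and rose in 2, with a median log2 fold change of −0.19. The A-type pores Kcnd2 and Kcnd3 carry a transient current in cell bodies and dendrites. Kcnd2 was 11.5 and 12.1 FPKM in WT cortex and 7.67 and 7.16 in KO, so both KO libraries were clearly lower (log2 fold change −0.61, SE 0.08, adjusted p = 0.00222, limma-trend with BH). Kcnd3 showed 9.66 and 10.1 in WT and 6.88 and 6.56 in KO, with no overlap (log2 fold change −0.49, SE 0.08, adjusted p = 0.00507, limma-trend with BH). The third member, Kcnd1, stood at 2.05 and 2.01 against 1.41 and 1.81 without passing (limma-trend with BH, adjusted p = 0.162). Their cytosolic calcium-binding partners moved unequally. Kcnip4 fell from 5.52 and 5.92 to 2.99 and 3.07 FPKM (log2 fold change −0.74, SE 0.09, adjusted p = 0.00165, limma-trend with BH), with each pair close together and far from the other. Kcnip1 fell from 12.1 and 11.4 to 8.17 and 9.37 (log2 fold change −0.39), whereas Kcnip2 (17.1 and 15.0, then 13.02 and 15.5) and Kcnip3 (11.9 and 11.8, then 13.4 and 11.2) overlapped between genotypes. No other Kv partner passed among 8 tested, Kcnab1, Kcnab2 and Kcnab3 included.

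Among the Shaker-type pores, which set firing threshold along axons, Kcna1 fell from 2.26 and 2.34 to 1.24 and 1.11 FPKM, a ratio of 0.513. The KO libraries lay at about the same low level (log2 fold change −0.60, SE 0.10, adjusted p = 0.00408, limma-trend with BH). Kcna6 was 9.76 and 9.14 in WT and 5.46 and 6.50 in KO, again fully separated (log2 fold change −0.59, SE 0.10, adjusted p = 0.00509, limma-trend with BH). Kcna2 (2.57 ± 0.083 to 2.13 ± 0.051), Kcna3 (1.96 ± 0.13 to 1.83 ± 0.16) and Kcna4 (1.35 ± 0.13 to 1.12 ± 0.059) did not pass.

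Kcnq5 and Kcnq3 encode pore-forming subunits of the M current, which restrains repetitive firing. Kcnq5 fell from 5.13 and 5.26 to 3.37 and 3.57 (log2 fold change −0.47, adjusted p = 0.00869, limma-trend with BH). Kcnq3 fell from 5.15 and 4.55 to 3.68 and 3.76 (log2 fold change −0.31, adjusted p = 0.0463, limma-trend with BH), close to the threshold.

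Kcnh3, a pore-forming subunit of the ether-a-go-go family found mainly in forebrain neurons, had the largest rise of any channel gene in cortex. It measured 8.22 and 8.53 FPKM in WT and 14.2 and 14.03 in KO. The KO pair lay well above the WT pair, a ratio of 1.69 (log2 fold change 0.69, SE 0.08, adjusted p = 0.00119, limma-trend with BH), and the authors' deposited table gave a log2 fold change of 0.83 (adjusted p = 4.15e-12). Its exons overlap those of Mcrs1 on the opposite strand in the supplied annotation. Mcrs1 was 52.3 and 43.7 in WT and 38.3 and 42.6 in KO (log2 fold change −0.24, adjusted p = 0.0919, limma-trend with BH). Its part in the values of Kcnh3 was not tested. In all, 11 of the 36 called genes have exons that overlap those of a gene on the opposite strand, and although the library kit was stranded, the labels do not state the strand setting of the counting. They are Kcnh3, Kcnd3, Kcna6, Kcnip4, Kcnj3, Kcnj6, Kcnn2, Kcnt2, Kcnq5, Cacng2 and Scn9a. Their values are uncertain to that extent.

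Potassium channels opened by calcium or sodium inside the cell showed 4 falls among 9 genes and no rise, with a median log2 fold change of −0.29. Kcnn2, a small-conductance channel of the afterhyperpolarization, went from 8.77 and 7.76 to 5.57 and 4.95 FPKM (log2 fold change −0.56, SE 0.10, adjusted p = 0.00566, limma-trend with BH), the KO libraries lying below the WT ones. The sodium-activated channel genes both fell, Kcnt2 from 1.98 and 2.15 to 1.30 and 1.13 (log2 fold change −0.47) and Kcnt1 from 3.97 and 3.94 to 2.77 and 3.003 (log2 fold change −0.35, adjusted p = 0.0272, limma-trend with BH). Kcnmb2, an inactivating beta subunit of the large-conductance channel, fell from 1.46 and 1.95 to 1.10 in both KO libraries (adjusted p = 0.0485, limma-trend with BH), at the edge of the threshold. The abundant beta subunit gene Kcnmb4 overlapped, at 42.3 and 31.9 in WT and 28.1 and 32.1 in KO, and the pore gene Kcnma1 did not pass (7.02 ± 0.27 to 5.95 ± 0.62). Kcnn1 measured 3.73 and 3.67 in WT and 4.29 and 4.84 in KO, above WT in both KO libraries without passing (adjusted p = 0.0941, limma-trend with BH).

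Inward rectifiers fell in 4 of 9 cases and rose in 1. Kcnj3 and Kcnj6, which encode G-protein-gated pores that carry slow inhibition downstream of GABA-B and other receptors, fell. Kcnj3 was 5.55 and 6.14 FPKM in WT cortex and 3.84 and 3.40 in KO (log2 fold change −0.57, SE 0.10, adjusted p = 0.00562, limma-trend with BH), and Kcnj6 was 1.36 and 1.53 in WT and 0.573 and 0.746 in KO (log2 fold change −0.56, SE 0.10, adjusted p = 0.00767, limma-trend with BH). No library of either gene crossed into the range of the other genotype. Kcnj6, like Kcnb2, Kcns2 and Scn2b, had a mean under 1 FPKM in KO and was in the table through its WT level. Kcnj9, of the same G-protein-gated group, stood at 3.02 and 3.06 against 2.52 and 2.65 and did not pass. Kcnj2, a strong rectifier, fell from 3.23 and 3.25 to 1.84 and 1.98 (log2 fold change −0.54, adjusted p = 0.0055, limma-trend with BH). Kcnj11, the pore of the ATP-sensitive channel, fell from 4.28 and 4.38 to 2.65 and 3.28 (log2 fold change −0.43). The KO pair was lower in both genes.

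Kcnj10, the glial inward rectifier through which astrocytes take up potassium, rose from 4.83 and 5.25 to 7.01 and 6.57 FPKM. All KO values exceeded all WT values (log2 fold change 0.37, SE 0.09, adjusted p = 0.0215, limma-trend with BH). The call was lost without WT 1, without KO 1 and without KO 2. The astrocyte markers given above rose in the same libraries, and their part in the rise of Kcnj10 was not tested.

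Leak channels showed 2 falls among 5 genes. Kcnk9, an acid-sensitive leak channel, went from 3.28 and 3.58 to 1.43 and 1.69 FPKM, a ratio of 0.455, with a wide gap between the genotypes (log2 fold change −0.79, SE 0.10, adjusted p = 0.00183, limma-trend with BH). Kcnk2, a stretch- and lipid-sensitive leak channel, went from 11.9 and 11.6 to 8.99 and 7.81 (log2 fold change −0.44, adjusted p = 0.0104, limma-trend with BH). Kcnk1, Kcnk3 and Kcnk10 did not pass, and their log2 fold changes lay between −0.14 and −0.02.

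Of 5 genes for the pore-forming alpha subunit of sodium channels, 4 fell, with a median log2 fold change of −0.41. Scn3a, an alpha subunit prominent before and around birth, was 12.1 and 12.3 FPKM in WT and 7.65 and 7.86 in KO. Values were tight within each genotype and clearly apart (log2 fold change −0.59, SE 0.08, adjusted p = 0.00203, limma-trend with BH). Scn2a1, currently named Scn2a, fell from 17.2 and 20.1 to 14.4 and 13.4 (log2 fold change −0.40, SE 0.09, adjusted p = 0.0159, limma-trend with BH). Scn1a, which becomes prominent later and in interneurons, fell from 4.38 and 4.70 to 3.04 and 3.31 (log2 fold change −0.41, adjusted p = 0.0168, limma-trend with BH). Scn9a, best known from sensory neurons, fell from 2.61 and 2.47 to 1.72 and 1.41 (log2 fold change −0.47, adjusted p = 0.0141, limma-trend with BH). In these 3 genes too the KO libraries lay below the WT ones. Scn8a, the alpha subunit of mature axon initial segments, was 7.82 and 8.27 in WT and 7.35 and 6.83 in KO, and did not pass (limma-trend with BH, adjusted p = 0.198).

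The beta subunits went different ways. Scn2b fell from 1.68 and 1.95 to 1.03 and 0.911 FPKM (log2 fold change −0.52, SE 0.10, adjusted p = 0.00965, limma-trend with BH). Scn3b measured 53.5 and 53.9 in WT and 60.9 and 61.9 in KO, narrowly missing the threshold (log2 fold change 0.19, adjusted p = 0.0558, limma-trend with BH) and passing it as higher after rescaling (adjusted p = 0.0155, limma-trend with BH). For all 5 alpha subunit genes both KO libraries lay below both WT libraries, as they did for 50.2% of all genes in cortex.

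In the supplied annotation Scn3a and Scn2a1 are next to each other, Scn1a and Scn9a are next to each other, and Csrnp3, Galnt3 and Ttc21b are the coding genes between the pairs. All 4 sodium channel genes of this cluster fell, whereas Csrnp3 (17.4 and 18.8, then 17.7 and 15.0 FPKM) and Ttc21b (2.63 and 2.92, then 2.33 and 2.24) did not pass, with adjusted p of 0.285 and 0.155 (limma-trend with BH). Galnt3 was not in the cortex table. The neighbours Kcna1 and Kcna6 both fell. Of the neighbours Cacng1, Cacng4 and Cacng5 the outer pair fell and Cacng4 in the middle had a log2 fold change of −0.01. Kcnj10 rose next to Kcnj9, which did not pass.

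Calcium channel genes changed least among the 3 families in cortex, with 3 falls and 1 rise among 22. The 18.2% called lay under the background of 22.5%, where it was 44.3% for potassium and 62.5% for sodium channel genes. After rescaling it was again 18.2%, against 17.3% of all genes, so its side of the background depended on the scale. On that scale 36.1% of potassium channel genes and 4 of 8 sodium channel genes were called, with 1 of these 4 higher. None of the 8 genes for the pore-forming alpha1 subunit passed. The lowest of them was Cacna1d, an L-type pore, at 7.58 and 7.59 FPKM in WT and 6.20 and 6.22 in KO (log2 fold change −0.25, adjusted p = 0.0575, limma-trend with BH). The presynaptic N-type pore Cacna1b was the highest, at 12.9 and 14.1 against 14.9 and 15.4 (log2 fold change 0.16, adjusted p = 0.171, limma-trend with BH). The interval of the Cacna1a difference ran from −0.14 to 0.26 and that of the T-type pore Cacna1g from −0.16 to 0.20. None of the 3 alpha2delta genes passed.

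Cacnb3 rose from 68.2 and 59.7 to 76.4 and 78.4 FPKM. Both KO libraries exceeded both WT libraries (log2 fold change 0.27, SE 0.08, adjusted p = 0.0324, limma-trend with BH), and the call held in only 1 of the 4 fits that leave a library out. Cacnb1 (16.2 ± 2.58 to 19.7 ± 1.82) did not pass (adjusted p = 0.097, limma-trend with BH). Among the 7 gamma genes 3 fell. Cacng5 fell from 2.79 and 3.05 to 1.88 and 1.67 (log2 fold change −0.50, SE 0.10, adjusted p = 0.00973, limma-trend with BH), and Cacng2, the AMPA receptor auxiliary subunit stargazin, from 5.37 and 5.22 to 3.57 and 3.94 (log2 fold change −0.41, adjusted p = 0.016, limma-trend with BH). Cacng1, best known as a skeletal muscle channel subunit, fell from 1.57 and 1.69 to 0.940 and 1.09 (adjusted p = 0.0246, limma-trend with BH). In each of these the KO pair was the lower one. The abundant Cacng7 (48.5 and 41.3, then 41.7 and 44.1) and Cacng4 (49.6 and 40.0, then 44.3 and 44.4) overlapped between genotypes.

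Summed over each family, potassium channel FPKM was 363.6 and 343.0 in WT cortex and 302.3 and 307.8 in KO, lower in both KO libraries. Sodium channel sums of 110.9 and 115.7 against 108.4 and 110.8 were slightly lower in KO, and calcium channel sums of 334.1 and 303.5 against 314.4 and 321.3 overlapped. The sodium sum was held up by Scn3b, the most abundant of its family.

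Partners of these channels whose symbols follow other patterns also fell in number. Of 31 measured, 14 fell and 2 rose, with a median log2 fold change of −0.28, and 9 fell and 2 rose after rescaling. As shares these were 45.2% lower and 6.45% higher, against 17.7% and 4.8% of all genes, and after rescaling 29.0% and 6.45%, against 7.72% and 9.57%. Fgf13, an intracellular FGF that binds sodium channels, fell from 64.1 and 70.5 to 41.7 and 36.3 FPKM (log2 fold change −0.77, adjusted p = 0.00111, limma-trend with BH). Fgf12 and Fgf14 of the same family fell by 0.37 and 0.41 on the log2 scale, but not after rescaling (adjusted p = 0.0816 and 0.079, limma-trend with BH). Fgf11, also of this family, was 5.86 and 5.54 in WT and 6.48 in the first KO library and 6.47 in the second, without passing (log2 fold change 0.16, adjusted p = 0.203, limma-trend with BH). The transmembrane partners of A-type channels fell, Dpp10 by 0.65 and Dpp6 by 0.47, as did Cntnap2, which clusters Shaker-type channels, by 0.54. The pacemaker channel gene Hcn2 fell by 0.52, and the sodium leak channel gene Nalcn and its subunit gene Fam155a by 0.48 and 0.65. Cntn1, Cntn2, Lgi2 and Adam22, which encode surface and secreted proteins that associate with channel complexes, fell as well, and of these only Cntn2 still passed after rescaling. Ank2, an ankyrin scaffold, rose by 0.34 and Stac2, an adaptor of L-type channels, by 0.71. Ank3, the ankyrin of the axon initial segment, was 25.6 and 25.9 in WT and 27.6 and 25.9 in KO (adjusted p = 0.61, limma-trend with BH).

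**Figure D2:**
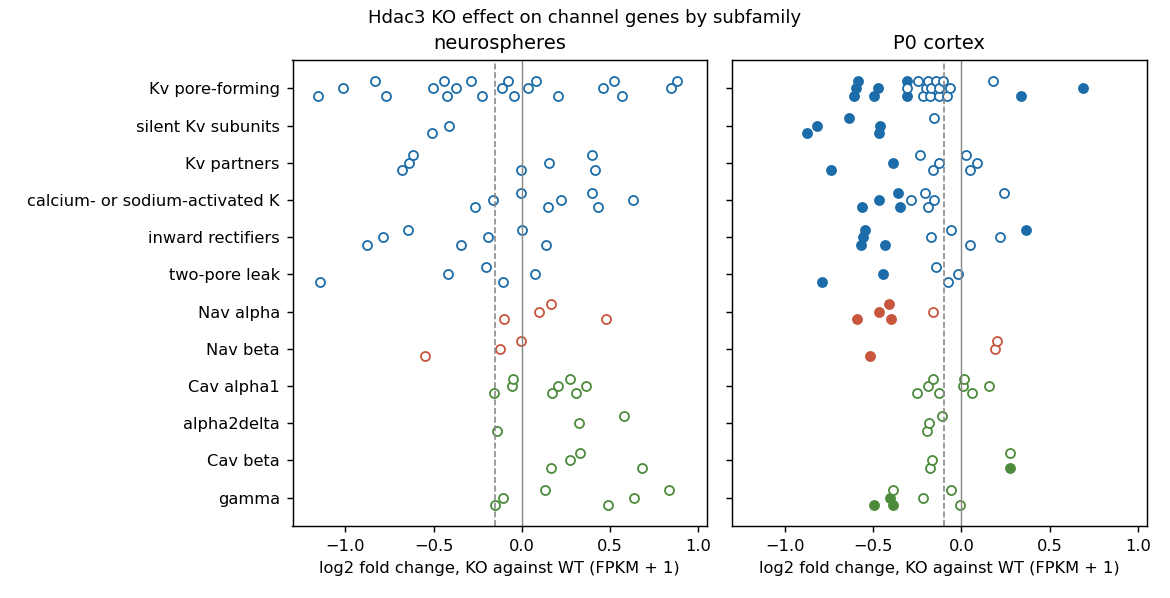
Log2 fold change of each channel gene, KO against WT, by subfamily in neurospheres (left) and P0 cortex (right), on the log2(FPKM + 1) scale. Each circle is 1 gene, blue for potassium, red for sodium and green for calcium channel genes, filled where the adjusted p was under 0.05; the dashed line is the median of all genes, −0.15 in neurospheres and −0.10 in cortex. All 6 silent subunits and all 5 sodium channel alpha genes lie left of the median line in cortex, and 15 of 21 calcium channel genes lie above 0 in neurospheres, where no circle is filled.

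In the authors' deposited table for cortex 24 of the 90 channel genes with an adjusted p were lower and 7 higher at an adjusted p under 0.05, and 11.9% of all genes with an adjusted p in that table were past it, 5.55% lower and 6.36% higher. Of the 36 calls from FPKM 28 were among these 31, all in the same direction. The calls it did not share were Cacng1, Cacng2, Kcnb2, Kcnip1, Kcnj11, Kcnj6, Kcnmb2 and Kcnq3, and it added Cacna1b, Kcnn1 and Scn3b.

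In neurospheres no channel gene passed the threshold among 78 tested, and 1.15% of all 11408 genes did. At an unadjusted p under 0.05 there were 19 of 78 (24.4%), 8 higher and 11 lower, where the share over all genes was 20.1%, with 3.77% higher and 16.3% lower. The authors' deposited table called 8 of the 78 as higher and 4 as lower, where 5.81% of all its genes with an adjusted p were called, 3.5% higher and 2.31% lower. Of all 89 genes matching the symbols with an adjusted p there, which include genes outside the FPKM table, 9 were higher and 4 lower. Replicates varied more here than in cortex, and the standard errors of the fold changes were larger. With the spread over all 8 libraries 13 of 77 channel genes passed (16.9%), close to the 15.3% of all genes. GABAergic interneuron markers were higher in KO neurospheres, 8 of 11 past the threshold, with WT sums of 1022 and 825.6 and KO sums of 1377 and 1388. Of 8 radial glia markers 1 fell and the sum went from 1568 and 1219 to 812.7 and 987.1, while the 12 neuron markers gave no call (1771 and 1467, then 1875 and 1732). None of 7 measured astrocyte markers was called and 1 of 8 oligodendrocyte lineage markers was higher. The 1 measured meningeal marker was higher, the 1 measured microglia marker was not called, and no endothelial or pericyte marker was measured. The part of these shifts in the channel values was not tested.

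The largest differences in neurospheres were in genes with few fragments. Kcnh3 was 2.83 and 1.78 FPKM in WT, 1.15 in KO 7, and listed at 0 in KO 8, which gives −1.15 on the log2(FPKM + 1) scale (SE 0.40, adjusted p = 0.185, limma-trend with BH). Kcnk9 was 1.20 and 3.53 in WT and 0.932 and 0.0601 in KO, resting on 1 implied fragment in KO 8 (log2 fold change −1.14, adjusted p = 0.211, limma-trend with BH). The WT libraries of Kcnk9 differed from each other more than the lower one did from KO 7. Kcnc4, a fast-gating pore, was 2.50 and 2.34 in WT and 0.346 and 1.13 in KO (log2 fold change −1.01, adjusted p = 0.144, limma-trend with BH). In all 3 genes the KO libraries lay below the WT libraries, as in 38.3% of all genes in neurospheres, and none passed. Each had a KO library under 1 FPKM, and the choice of genes on WT favours falls near that level.

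Other differences were of similar size and better measured. Kcnj2 measured 3.64 and 3.97 FPKM in WT and 1.96 and 1.31 in KO (log2 fold change −0.88, SE 0.24), and Kcna1 2.47 and 2.90 in WT and 1.41 and 0.771 in KO (log2 fold change −0.83, SE 0.26). The authors' deposited table called both as lower, with −0.84 (adjusted p = 0.0203) and −0.83 (adjusted p = 0.0249). Kcna2, at 8.24 and 12.9 in WT and 5.64 and 5.63 in KO, was also lower there (−0.66, adjusted p = 0.0219), as was Kcnip3, at 47.5 and 45.5 in WT and 29.1 and 29.8 in KO (−0.47, adjusted p = 0.034). Kcnip3 had the smallest adjusted p of the channel genes in the fit of FPKM (log2 fold change −0.64, SE 0.14, adjusted p = 0.0854, limma-trend with BH). Kcnj11 was 3.70 and 2.51 in WT and 1.90 and 0.909 in KO, and Kcnj16, a partner subunit of Kcnj10, was 2.23 and 1.85 in WT and 0.756 and 1.13 in KO. All 6 of these genes had both KO libraries below both WT libraries, as did 38.3% of all genes in neurospheres. Kcnj10 itself had the same level in both genotypes, at 12.8 and 13.1 against 12.9 and 12.98.

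**Figure D3:**
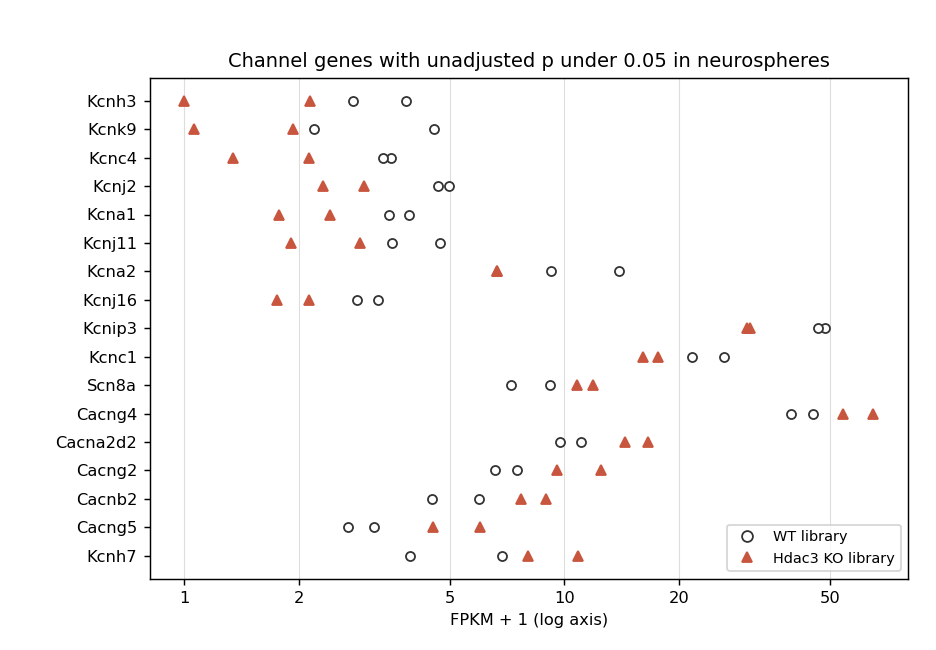
Levels of 17 of the 19 channel genes with an unadjusted p under 0.05 in neurospheres, as FPKM + 1 on a log axis, so that a gene listed at 0 sits at 1. Circles are WT 5 and WT 6 and triangles KO 7 and KO 8; in the 10 upper rows the KO libraries lie below WT and in the 7 lower rows above, and none passed after adjustment.

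Calcium channel genes were the family with most members above WT in KO neurospheres. Both KO libraries lay above both WT libraries for 13 of the 21 calcium channel genes (61.9%) and below them for 1, where the shares over all genes were 14.6% and 38.3%. Among potassium channel genes these numbers were 8 and 19 of 50. The median log2 fold change of the calcium channel genes was 0.27, against −0.15 over all genes, and it was 0.42 against −0.003 after rescaling. That of potassium channel genes was −0.14, −0.02 after rescaling and 0.10 with quantile normalization, so its sign depended on the scale. No calcium channel gene passed, and these counts describe 2 libraries per genotype.

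Cacng5 had the largest difference of the calcium channel genes, with 2.16 and 1.70 FPKM in WT and 4.998 and 3.52 in KO (log2 fold change 0.83, SE 0.25, adjusted p = 0.151, limma-trend with BH). It was called as higher in the authors' deposited table (0.89, adjusted p = 0.0151). Cacnb2, a beta subunit gene, was 3.48 and 4.96 in WT and 7.94 and 6.69 in KO, and Cacna2d2, an alpha2delta gene, 8.76 and 10.1 in WT and 15.6 and 13.4 in KO. Both were called in the authors' deposited table (0.80, adjusted p = 0.0181, and 0.71, adjusted p = 0.00316), as were Cacnb3 (0.48, adjusted p = 0.0392) and the T-type pore gene Cacna1g (0.56, adjusted p = 0.0427). Cacng2 (5.56 and 6.50, then 8.56 and 11.5) and Cacng4 (38.4 and 44.1, then 64.0 and 53.0) likewise had KO above WT in both libraries, with an unadjusted p under 0.05 and no call. The summed calcium channel FPKM was 289.6 and 312.0 in WT and 362.1 and 350.7 in KO, higher in both KO libraries.

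Outside the calcium channels, Scn8a was 6.22 and 8.15 FPKM in WT neurospheres and 9.77 and 10.9 in KO, higher in both KO libraries. The authors' deposited table called Scn8a (0.57, adjusted p = 0.0282) and Kcnh4 (0.77, adjusted p = 0.0225) as higher. Kcnq3 had the largest positive value, a log2 fold change of 0.88, but its WT libraries were 3.36 and 10.3 against 11.6 and 12.2 in KO, so the difference came mostly from WT 5. Kcnh7 showed 2.93 and 5.84 in WT and 9.85 and 7.01 in KO (log2 fold change 0.85, adjusted p = 0.198, limma-trend with BH). Sums over the potassium channel genes (334.6 and 361.7, then 328.7 and 306.4) were lower in KO, and those over the sodium channel genes (86.2 and 87.3, then 85.4 and 81.7) were lower by a small margin. None of 30 measured partner genes was called in neurospheres, where 1.15% of all genes were. An unadjusted p under 0.05 was found for 4 of them (13.3%), against 20.1% of all genes.

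Whether the KO effect differed between the tissues was tested over all 8 libraries, as cortex minus neurospheres. Of 77 channel genes 1 passed, Cacng5, where 1.4% of 10947 genes did, and 19 had an unadjusted p under 0.05, or 24.7% against 17.6% of all genes. The effect on Cacng5 was −0.50 in cortex and 0.83 in neurospheres, a difference of −1.33 (SE 0.25, adjusted p = 0.0446, limma-trend with BH). That call was lost with a pseudocount of 0.1, and without WT 5 or any of the 4 cortex libraries. Cacng2 (−1.04, adjusted p = 0.0644), Kcnip3 (0.69, adjusted p = 0.0734) and Kcnh3 (1.85, adjusted p = 0.0925) missed the threshold of limma-trend with BH. The median difference was −0.28 over the calcium, −0.51 over the sodium and −0.12 over the potassium channel genes, and 0.05 over all genes.

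**Figure D4:**
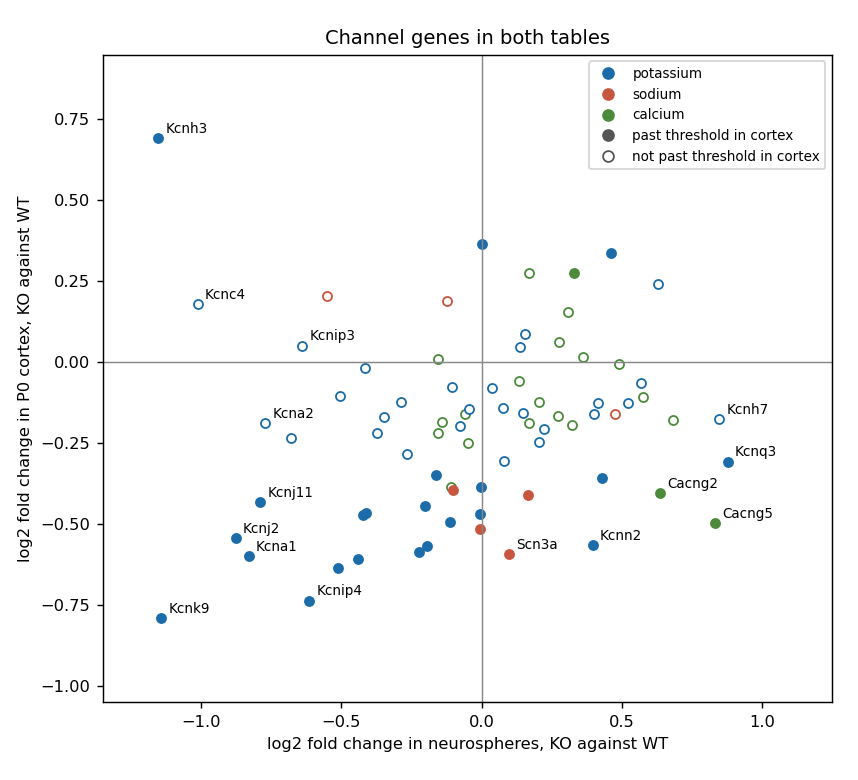
Log2 fold change of the 77 channel genes in both tables, neurospheres on the x axis and P0 cortex on the y axis, on the log2(FPKM + 1) scale, coloured by family and filled where the gene passed in cortex. Points spread over all 4 quadrants; 34 genes lie below 0 in both tissues, 9 above 0 in both, 27 above 0 in neurospheres and below 0 in cortex, and 7 the other way, Kcnh3 at the upper left and Cacng5 at the lower right among them.

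Across the 77 genes the effects in the tissues were weakly related, with Pearson r of 0.152 and Spearman rho of 0.251, where all genes gave 0.177 and 0.181. The points are genes that share the same 8 libraries, so these values are a description. Signs matched for 43 of 77 channel genes (55.8%), where 64.1% of all genes matched. Of the genes that fell in cortex, Kcna1, Kcna6, Kcnf1, Kcnip4, Kcnj2, Kcnj3, Kcnj11, Kcnk9 and Kcnq5 also had both KO libraries below both WT libraries in neurospheres. Cacng2, Cacng5, Kcnmb2 and Kcnq3 fell in cortex but had both KO libraries above both WT libraries in neurospheres. Of the genes that rose in cortex, Cacnb3 had both KO libraries above both WT libraries there too. Over all genes in neurospheres 38.3% had KO below WT in this way and 14.6% above, so such matches are common.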

How the data were processed

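RNA sequencing was done on 8 libraries, 2 for each genotype in neurospheres and cortex. Per the labels, the deposited FPKM values were made by the authors with Cufflinks, 1 table for each tissue, with an interval of the FPKM per library. Per the submitters' processing notes, the authors also used Trim Galore, STAR, Bowtie, featureCounts and DESeq2 with the build mm9, and no versions are stated. Separate comparison tables deposited by the authors hold log2 fold changes, p-values and adjusted p-values, and a base mean, a signal of normalized counts, all used as deposited, and their fold changes come from another model, so their sizes are not compared with those from FPKM. FPKM carries no depth, so precision was read from the interval widths, and this covers counting error only.

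Of a gene listed more than once the row with the highest mean was kept, and rows whose symbol had turned into a date were left out. Values were taken as log2(FPKM + 1), those of mean 1 FPKM or more entered the fit, and limma-trend (limma 3.58.1, R 4.3.3) was fitted for each tissue over all genes, with Benjamini-Hochberg adjustment and a threshold of 0.05. A contrast over all 8 libraries tested the difference between tissues. The fit was tested on simulated data. Tables were made in Python 3.11.15 (pandas 2.3.3) and figures with matplotlib 3.10.9. Genes named are those called, the 10 with the largest fold change and the 8 with the highest WT level in each tissue; others were chosen after their values were seen. A few genes that enter the fits and counts are not reported here by name or drawn in the plots of levels by gene. The members, gene lists and tests were chosen with earlier results of these data known. Alternatives were another pseudocount, other filters, other scalings, limma without trend, a shared spread, a replicate block and leaving out each library.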

Additional observations from a re-analysis of the deposited data

Results flagged for a closer look

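The KO effect on Cacng5 differed between the tissues by a test of the difference itself. It was −0.50 in cortex and 0.83 in neurospheres, a difference of −1.33 on the log2 scale (SE 0.25, adjusted p = 0.0446, limma-trend with BH), with KO below WT in 2 of 2 cortex libraries and above WT in 2 of 2 neurosphere libraries. The call was lost with a pseudocount of 0.1, without WT 5 and without each of the 4 cortex libraries.

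Kcnq1ot1, a noncoding RNA whose symbol follows the same pattern, was in neither FPKM table. The authors' deposited table for neurospheres put its log2 fold change at 0.82 (adjusted p = 0.0128, SE 0.23), and the authors' deposited table for cortex 0.08 (adjusted p = 0.84). Of the genes matching the symbols but outside the FPKM table, 11 had an adjusted p in the authors' neurosphere table. Kcnq1ot1 was the 1 called as higher, where 3.5% of all genes with an adjusted p were. In the authors' cortex table none of 20 was called, against 11.9% of all genes with an adjusted p. Groups of 2 libraries allow no check for a sample that stands apart.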

How the results depend on the processing

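No called gene changed direction under the alternatives tried. The median log2 fold change of the calcium channel alpha1 genes in cortex went from −0.06 to 0.04 after rescaling and 0.05 with quantile normalization, and that of potassium channel genes in neurospheres also changed sign with quantile normalization. With the spread over all 8 libraries, 13 of 77 channel genes were called in neurospheres (16.9%, against 15.3% of all genes) and 0 in cortex, with 0 potassium, 0 sodium and 0 calcium channel genes. Quantile normalization left 2 calcium channel calls in cortex and 2 genes whose effect differed between tissues. Over all genes that fit called 1924 of 11988 in cortex and 243 of 10947 for the difference between tissues. A pseudocount of 0.1 left 0 channel genes whose effect differed between tissues, where 144 of all 10947 genes were called. Leaving out 1 library gave 0 to 5 calls in neurospheres, 19 to 26 in cortex (potassium 16 to 19, sodium 1 to 4, calcium 1 to 3) and 0 to 12 for the difference between tissues. In those fits the lone sample of a group is assumed to vary like the other group. Their counts were therefore not set against those of all genes, and no excess of channel genes is read from them. In cortex the replicate block gave 34 calls, without Kcnb2 and Kcnq3, and 25 potassium channel calls. Over all genes 21.1% were called in that fit, against 22.5% without the block. The same-numbered cortex libraries correlated at −0.0955 in their deviations, so the numbers were not taken as pairs. The cause of these changes was not tested. Counted over each result under each alternative, so that a result enters more than once, 404 kept the side of the threshold, 13 passed it and 116 no longer passed it. Depth limits genes such as Kcnk9, whose level in KO 8 rests on 1 implied fragment.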
